A study of Sus scrofa with 6 samples.

Results

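Complement genes were examined in the abdominal aorta of male Wuzhishan pigs, a miniature pig breed. The set was defined by name as the C1q chains C1QA, C1QB and C1QC, the C1 proteases C1R and C1S, the central component C3, factor D (CFD), and the anaphylatoxin receptors C3AR1 and C5AR1. Of these 9 genes, 7 had values among the 30477 genes of the table. Of these, 6 were found by symbol and C3AR1 by its gene identifier, and no row was matched to C1R or C1S, which were not analysed here. The NC group was 3 pigs fed a normal chow diet, and the HFCF group was 3 pigs fed a diet high in fat, cholesterol and fructose. Both diets were given for 6 months, and RNA from the whole vessel was sequenced with 1 library per pig. The labels give an age of 3 to 4 months for both groups without saying at which time, the methods of the study give an older age before feeding began, and the age is therefore uncertain. By the labels, the groups differ in the diet alone. The identifiers were ENSSSCG00000003524 for C1QA, ENSSSCG00000033512 for C1QB, ENSSSCG00000038706 for C1QC, ENSSSCG00000013551 for C3, ENSSSCG00000023868 for C3AR1, ENSSSCG00000029371 for C5AR1 and ENSSSCG00000013418 for CFD.

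Complement is a set of plasma and cell surface proteins that tag particles for uptake, attract leukocytes and can lyse membranes. In the classical arm, C1q binds antibody, modified lipoproteins or dying cells and carries the proteases C1r and C1s, which cut C4 and C2. In the alternative arm, factor D cuts factor B. Both arms form enzymes that cleave C3, and the fragments C3a and C5a act through their receptors on myeloid cells. Most plasma complement comes from the liver, whereas C1q is largely a product of macrophages and dendritic cells, and factor D, also called adipsin, is a major product of fat cells. C1q and activated complement are known from human atherosclerotic lesions.

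Values are FPKM, which are fragment numbers scaled by the length of the exons and the size of the library, so levels of different genes can be set side by side per length. Log2(FPKM + 0.1) was tested with limma in the 15384 genes whose FPKM averaged 0.1 or more, Benjamini-Hochberg adjustment covered all of these genes, and a call means an adjusted p under 0.05. For genes of low FPKM this scale gives a fold change that is too small. The absolute depth of the libraries is unknown. Taking NC pig 1 as 1, relative depth was 1.09 in NC pig 2, 1.37 in NC pig 3 and 1.03 to 1.07 in the HFCF group. Over all tested genes the log2 fold change had a median of 0.32. HFCF pig 1 stood apart from the other libraries, with Pearson correlations of 0.927 and 0.931 with the other HFCF pigs across genes, which are not independent replicates, against 0.955 between those 2 pigs. Its summed FPKM over the red blood cell markers was 2907, against 86.9 and 95.7 in the other HFCF pigs and 22.1 to 180 in the NC pigs. Its summed neutrophil markers reached 88.5, against 6.33 and 10.8 in the other HFCF pigs and 1.05 to 1.59 in the NC pigs. The part of blood or leukocyte RNA in the values of this pig was not tested. For the called genes of the set and several other genes, ratios of means are also given without this pig. Other folds are given with it alone.

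Of the 7 measured genes, 6 were higher in the HFCF group, namely the C1q chains, C3 and both anaphylatoxin receptors, and CFD was not called. Among all tested genes, 22.8% were called higher. Every HFCF value lay above every NC value in the same 6 genes, against 36.1% of all tested genes. The thresholds of the study for higher genes were a ratio of group means above 2 and an unadjusted p under 0.05. Applied here with the limma p, they also selected these 6 genes, against 20.7% of all tested genes. HFCF pig 1 had the highest HFCF value in 7 of 7 genes, against 42.0% of all tested genes. In 5 of the 7 it exceeded both other HFCF pigs by more than 1.5 times, which held for 16.1% of all tested genes.

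**Figure D1:**
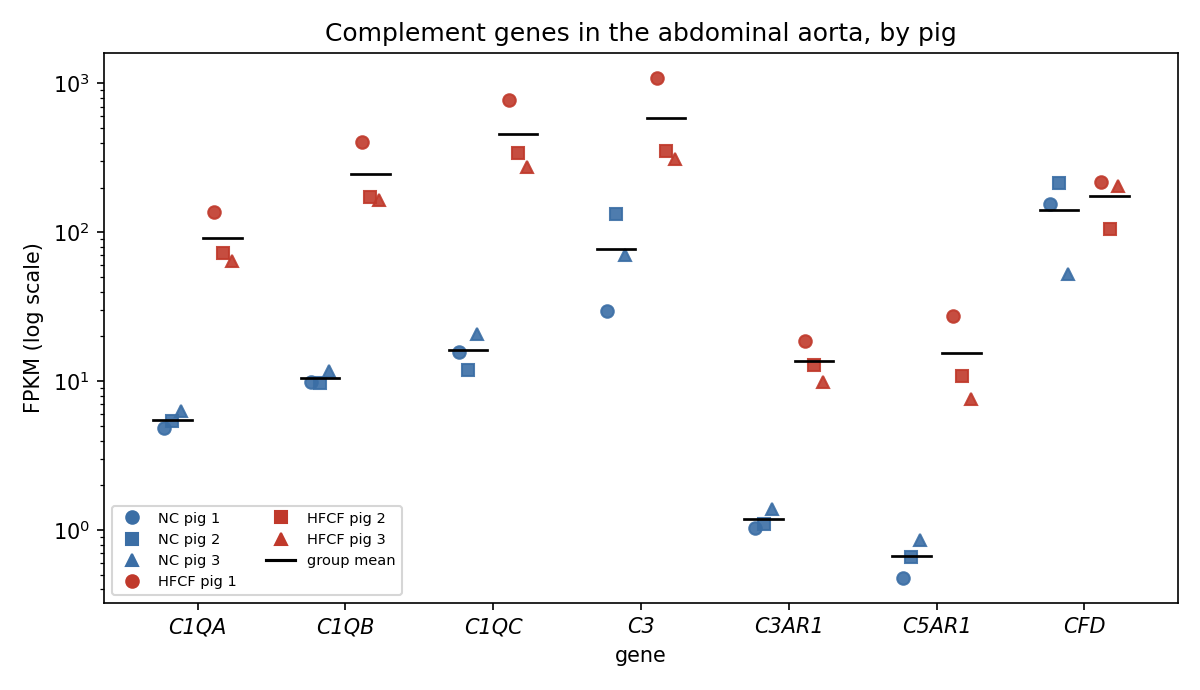
FPKM of the 7 measured complement genes in each pig on a log axis, with blue for NC, red for HFCF, one marker shape per pig number within a group and a bar at the group mean. The HFCF values lie above the NC values in 6 genes, and the groups overlap for CFD.

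The C1q chains rose together. They form the recognition molecule of the classical arm, and each C1q molecule holds the 3 chains in equal numbers. C1QA was measured at 4.83, 5.37 and 6.29 FPKM in NC pigs 1 to 3 and at 138, 73.2 and 64.0 FPKM in HFCF pigs 1 to 3. C1QB was measured at 9.87, 9.75 and 11.7 FPKM in the NC pigs and at 406, 174 and 165 FPKM in the HFCF pigs. C1QC was measured at 15.7, 11.9 and 20.8 FPKM in the NC pigs and at 771, 339 and 273 FPKM in the HFCF pigs. The NC pigs lay close together for each chain, no HFCF pig came near them, and HFCF pig 1 was well above the other two.

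The mean of C1QA went from 5.50 ± 0.741 (SD, n = 3) to 91.7 ± 40.3 FPKM, a 16.7-fold difference. Its log2 fold change was 3.96 with a 95% interval of 3.27 to 4.65 and an adjusted p of 0.000618. C1QB went from 10.4 ± 1.10 to 248 ± 137 FPKM, 23.8-fold, with a log2 fold change of 4.43, an interval of 3.62 to 5.24 and an adjusted p of 0.000723. C1QC went from 16.1 ± 4.50 to 461 ± 270 FPKM, 28.6-fold, with a log2 fold change of 4.71, an interval of 3.77 to 5.66 and an adjusted p of 0.000903. On the log2 scale all 3 differences were larger than the spread between pigs, whereas in FPKM the SD of the HFCF group was wide beside the difference in means. Without HFCF pig 1 the ratios of means were 12.5 for C1QA, 16.2 for C1QB and 19.0 for C1QC, the last more than 1.5 times smaller than with it. Ranked by group mean among the tested genes, C1QC moved from place 2423 in NC to 104 in HFCF, C1QB from 3502 to 180 and C1QA from 5396 to 432.

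The order of the chains was the same in every pig, with C1QC highest, C1QB next and C1QA lowest per length. The ratio of C1QB to C1QA was 2.04, 1.82 and 1.86 in the NC pigs, against 2.94, 2.37 and 2.57 in the HFCF pigs. The ratio of C1QC to C1QA was 3.25, 2.21 and 3.31 in the NC pigs, against 5.59, 4.64 and 4.26 in the HFCF pigs. Both ratios were higher in each HFCF pig than in any NC pig, whereas the ratio of C1QC to C1QB overlapped between the groups, with 1.22 to 1.78 in NC and 1.66 to 1.95 in HFCF. The intervals of the 3 fold changes overlapped, and differences between the changes of genes were not tested. In the RefSeq annotation C1QA, C1QC and C1QB are consecutive genes on chromosome 6.

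The other serine proteases of the cascades moved less or were not called. C2, which C1s cuts and which gives the classical C3-cleaving enzyme its protease, was measured at 7.57, 11.6 and 5.90 FPKM in the NC pigs and at 67.5, 33.5 and 35.9 FPKM in the HFCF pigs. It was 5.46-fold higher, with a log2 fold change of 2.41, an interval of 1.61 to 3.22 and an adjusted p of 0.00396. Without HFCF pig 1 its ratio of means was 4.15. The ratio of C1QB to C2 within a pig was 0.840 to 1.98 in the NC pigs and 6.01, 5.19 and 4.59 in HFCF, higher in each HFCF pig than in any NC pig. MASP1, a protease of the lectin arm, was measured at 0.0714 to 0.197 FPKM in the NC pigs and 0.676 to 1.37 FPKM in the HFCF pigs, with a log2 fold change of 2.23 and an adjusted p of 0.00778. MASP2, the lectin arm protease that cuts C4 and C2, was not called, with 0.566 to 1.13 FPKM in NC, 1.11 to 2.32 FPKM in HFCF and an adjusted p of 0.0750, which was 0.0363 without HFCF pig 3.

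C1RL, a protease related to C1r whose gene neighbours C1R in the RefSeq annotation, was measured at 1.44, 0.653 and 0.904 FPKM in the NC pigs and at 1.94, 2.59 and 1.70 FPKM in the HFCF pigs. The groups did not overlap, but its adjusted p of 0.0554 missed the threshold, and it was 0.0443 without NC pig 1. Factor B (CFB), the alternative arm counterpart of C2, was measured at 1.42, 3.09 and 0.867 FPKM in NC and at 4.03, 0.263 and 0.883 FPKM in HFCF. Its groups overlapped throughout, with an interval of the log2 fold change from -2.63 to 1.51. Factor I (CFI), the protease that inactivates C3b and C4b, was measured at 0.758 to 1.68 FPKM in NC and 1.08 to 3.34 FPKM in HFCF, with an adjusted p of 0.469.

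C3, the protein on which all arms converge, was higher in the HFCF group but varied more among pigs than C1q did. It was measured at 29.5, 132 and 70.1 FPKM in the NC pigs and at 1088, 351 and 312 FPKM in the HFCF pigs. NC pig 2 was more than 4 times NC pig 1, and HFCF pig 1 was 3.28 times the mean of the other two HFCF pigs, yet the groups did not overlap. The mean went from 77.4 ± 51.8 to 584 ± 437 FPKM, 7.55-fold, with a log2 fold change of 2.92, an interval of 1.39 to 4.45 and an adjusted p of 0.0172. The ratio was 4.29 without HFCF pig 1. The call was lost without NC pig 1, the lowest value, where the log2 fold change was 2.35 and the adjusted p 0.0551.

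C4A, the C4 gene whose product is cut by C1s to build the classical enzyme, was measured at 25.7, 52.8 and 45.7 FPKM in the NC pigs and at 38.6, 18.3 and 51.3 FPKM in the HFCF pigs. The groups overlapped and C4A was not called, with an interval of the log2 fold change from -1.26 to 0.74. The ratio of C3 to C4A within a pig was 1.15, 2.51 and 1.54 in NC and 28.2, 19.1 and 6.09 in HFCF, higher in each HFCF pig than in any NC pig. That of C3 to C1QC was 1.88, 11.2 and 3.37 in NC and 1.41, 1.03 and 1.14 in HFCF, lower in each HFCF pig than in any NC pig. Properdin (CFP), which stabilises the alternative enzyme, was measured at 3.27 to 4.36 FPKM in NC and 4.07 to 4.82 FPKM in HFCF, with an adjusted p of 0.468. C5, the source of C5a, lay between 0.0206 and 0.115 FPKM in the 6 pigs, under the level at which genes were tested.

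**Figure D2:**
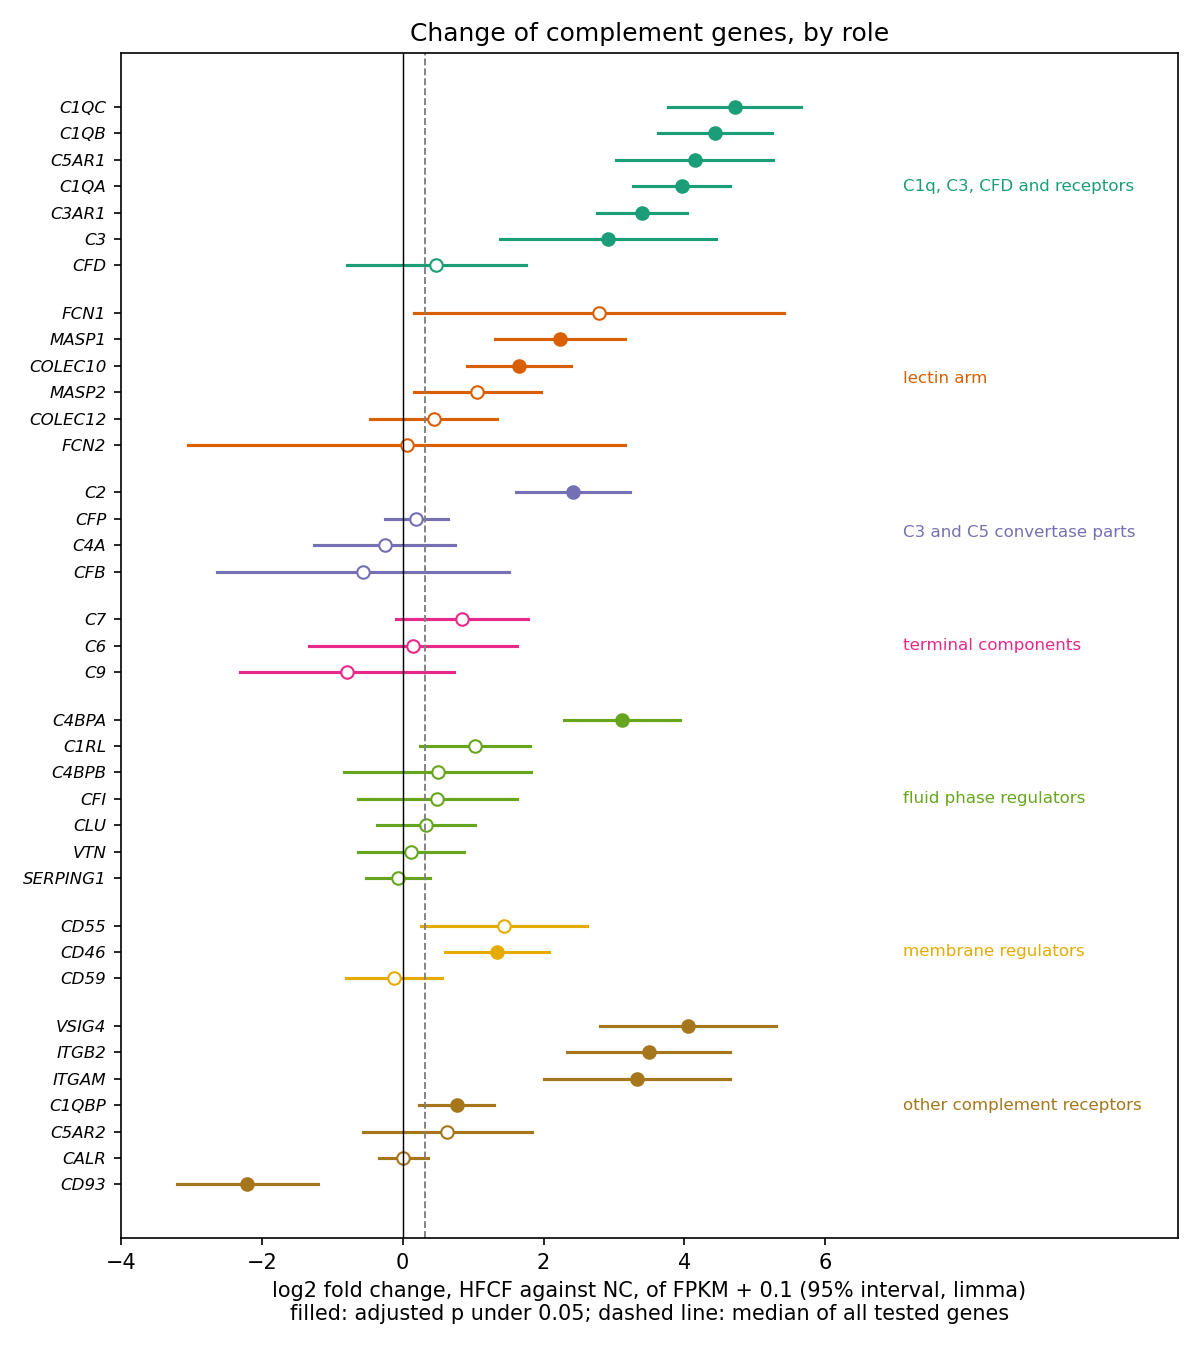
Log2 fold change of HFCF against NC on the log2(FPKM + 0.1) scale for the 7 measured genes of the set and the 30 other complement genes tested, grouped by role, with points for limma estimates, bars for 95% intervals, filled points for an adjusted p under 0.05 and a dashed line at the median of all tested genes, 0.32. C1q, C3AR1, C5AR1 and C3 lie right of the line with filled points, whereas CFD, C4A, CFB and SERPING1 have open points and intervals that cross 0.

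Both anaphylatoxin receptors rose from low levels. C3AR1, the receptor for C3a, was measured at 1.04, 1.10 and 1.40 FPKM in the NC pigs and at 18.6, 12.9 and 9.83 FPKM in the HFCF pigs. Its mean was 11.7-fold higher, with a log2 fold change of 3.40, an interval of 2.77 to 4.03 and an adjusted p of 0.000751, and the ratio was 9.63 without HFCF pig 1. C5AR1, the main signalling receptor for C5a, was measured at 0.480, 0.660 and 0.857 FPKM in the NC pigs and at 27.6, 10.9 and 7.62 FPKM in the HFCF pigs. Its mean was 23.1-fold higher, with a log2 fold change of 4.15, an interval of 3.03 to 5.26 and an adjusted p of 0.00203. HFCF pig 1 carried much of this mean, and the ratio was 13.9 without it.

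The second C5a receptor, C5AR2, which does not couple to G proteins, lies next to C5AR1 in the RefSeq annotation. It was measured at 0.954, 0.718 and 1.34 FPKM in the NC pigs and at 3.48, 0.868 and 1.24 FPKM in the HFCF pigs, and only HFCF pig 1 exceeded the NC values. C5AR2 was not called, with an interval of the log2 fold change from -0.56 to 1.84. The ratio of C5AR1 to C5AR2 was 0.503, 0.920 and 0.640 in the NC pigs, against 7.93, 12.5 and 6.13 in the HFCF pigs. C5AR1 was thus below C5AR2 in all 3 NC pigs and above it in all 3 HFCF pigs. C3AR1 was above C5AR1 in the 3 NC pigs and in HFCF pigs 2 and 3, with C5AR1 to C3AR1 ratios of 0.462 to 0.614 and of 0.844 and 0.776, and the ratio was 1.49 in HFCF pig 1.

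Receptors for bound complement on phagocytes were higher as well. VSIG4, a macrophage receptor for C3b and iC3b, was measured at 1.85, 2.15 and 5.36 FPKM in the NC pigs and at 95.4, 35.7 and 31.5 FPKM in the HFCF pigs, with a log2 fold change of 4.05 and an adjusted p of 0.00306. ITGAM and ITGB2 encode the chains of complement receptor 3, which binds iC3b. ITGAM was measured at 0.465 to 0.669 FPKM in NC and at 17.2, 4.73 and 3.595 FPKM in HFCF, with a log2 fold change of 3.33 and an adjusted p of 0.00676. ITGB2 had a mean of 1.63 ± 0.345 FPKM (SD, n = 3) in NC and was measured at 43.8, 14.2 and 11.3 FPKM in HFCF, with a log2 fold change of 3.49 and an adjusted p of 0.00384. The ratios of means fell by more than 1.5 times without HFCF pig 1, from 17.4 to 10.8 for VSIG4, from 14.7 to 7.18 for ITGAM and from 14.1 to 7.80 for ITGB2.

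CD93, an endothelial and myeloid surface protein once described as a C1q receptor, was lower. It was measured at 126, 66.6 and 69.0 FPKM in the NC pigs and at 32.0, 17.1 and 10.7 FPKM in the HFCF pigs, without overlap, and its log2 fold change was -2.20 with an adjusted p of 0.0107. Of the 8 endothelial markers, 0 were called by limma in either direction, 2 had an unadjusted p under 0.05, and their log2 fold changes ran from -0.77, for CLDN5, to 1.18, for TEK. The 2 were TEK and KDR, which were 2.42-fold and 2.04-fold higher without overlap between the groups, at adjusted p-values of 0.0541 and 0.111. Without HFCF pig 1 the ratios of means were 1.87 for TEK and 1.40 for KDR. PECAM1 overlapped between the groups, with 40.9 to 92.8 FPKM in NC and 36.5 to 75.6 FPKM in HFCF. The part of endothelial cells in the CD93 values was not tested. C1QBP, a mainly mitochondrial protein that binds the globular heads of C1q, was 1.71-fold higher with an adjusted p of 0.0428, a call that was lost under 12 of 15 alternatives, with adjusted p-values of 0.0375 to 0.199 over all of them.

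Regulators were mixed. SERPING1, the inhibitor of C1r and C1s, was abundant in both groups, at place 71 of the tested genes in NC and 96 in HFCF, with 493, 559 and 480 FPKM in the NC pigs, against 429, 443 and 612 FPKM in the HFCF pigs. Its groups overlapped, with an interval of the log2 fold change from -0.51 to 0.39. The ratio of C3 to SERPING1 was 0.0598, 0.237 and 0.146 in NC and 2.54, 0.792 and 0.510 in HFCF. C4BPA, the chain of the C4b-binding protein that limits the classical enzyme, was measured at 3.05, 4.87 and 2.84 FPKM in NC and at 51.1, 25.3 and 22.9 FPKM in HFCF, 9.23-fold higher with an adjusted p of 0.00195. Without HFCF pig 1 its ratio of means was 6.72. CD46, a membrane cofactor for factor I, was measured at 6.70, 11.1 and 11.6 FPKM in NC and at 35.8, 22.2 and 17.9 FPKM in HFCF, with a log2 fold change of 1.34 and an adjusted p of 0.0205, which was 0.0679 without NC pig 1. CD55, which dissociates the C3 enzymes, did not overlap between the groups but had an adjusted p of 0.0688, which was 0.0398 without NC pig 3. CD59, the membrane inhibitor of the lytic complex, was measured at 41.7 to 86.8 FPKM in NC and 42.0 to 62.8 FPKM in HFCF, with an adjusted p of 0.775. No row was matched to ITGAX, which was not analysed here.

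In the complement genes outside the set, 47 were listed, 37 had values and 30 were tested, of which 9 were called higher and 1 lower. This is close to the 22.8% and the 6.16% of all tested genes, and their log2 fold changes had a median of 0.57 against 0.32 over all genes tested. In the lectin arm 2 of 6 tested genes were called, MASP1 and COLEC10, a collectin, which had 0.0906 to 0.104 FPKM in NC and 0.437 to 0.560 FPKM in HFCF and an adjusted p of 0.0103. FCN1 had the largest log2 fold change of this arm, 2.79, but was not called, with an adjusted p of 0.102. It was measured at 0.0107 to 0.124 FPKM in NC and at 8.03, 0.288 and 0.420 FPKM in HFCF, without overlap. Of the terminal components, which form the lytic pore, 0 of 3 tested genes were called by limma, and their unadjusted p-values were 0.826 for C6, 0.0708 for C7 and 0.257 for C9. C7 was the only one above 1 FPKM, with 6.69 to 8.49 FPKM in NC and 6.96 to 21.0 FPKM in HFCF and an adjusted p of 0.152 that was 0.0115 without HFCF pig 2, whereas C6, C8A, C8B and C9 did not exceed 0.305 FPKM in any pig.

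CFD differed from the rest of the set. It was measured at 156, 214 and 52.3 FPKM in the NC pigs and at 218, 105 and 205 FPKM in the HFCF pigs, and the groups overlapped. The mean was 141 ± 81.8 FPKM in NC and 176 ± 61.5 FPKM in HFCF, with a log2 fold change of 0.48, an interval of -0.80 to 1.75 and an adjusted p of 0.539. The estimate turned to -0.12 without NC pig 3, the lowest value, so no direction is given. In NC pigs CFD was the most abundant gene of the set on average, at place 271 of the tested genes, and it stood at place 248 in HFCF, behind C3, C1QC and C1QB.

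Fat cell markers varied between the pigs beside CFD. ADIPOQ, which encodes the fat cell hormone adiponectin, was measured at 39.1, 59.9 and 1.23 FPKM in the NC pigs and at 4.08, 0.301 and 4.04 FPKM in the HFCF pigs. Within each group the order of the pigs by CFD was the same as by ADIPOQ, but the ratio of CFD to ADIPOQ was 3.98, 3.57 and 42.7 in NC and 53.3, 349 and 50.6 in HFCF. PLIN1, a coat protein of fat cell lipid droplets, was measured at 19.1, 33.3 and 0.669 FPKM in NC and at 1.40, 0.245 and 4.46 FPKM in HFCF. Neither marker was called with all pigs, at adjusted p-values of 0.198 for ADIPOQ and 0.242 for PLIN1, and both were called lower without NC pig 3, at 0.0299 and 0.0354. The summed FPKM of the 7 adipocyte markers was 126 to 274 in NC and 72.5 to 105 in HFCF. Much of this sum was PNPLA2, which alone had 111, 121 and 107.5 FPKM in the NC pigs and 54.2, 65.5 and 72.8 FPKM in the HFCF pigs. LEP, CIDEC and LIPE, like ADIPOQ and PLIN1, overlapped between the groups and were not called. Of the 7 markers, 2 were called lower, against 6.16% of all tested genes. These were PNPLA2, which encodes a triglyceride lipase, with an adjusted p of 0.00962, and PLIN4, another lipid droplet coat protein, with an adjusted p of 0.0296 that was 0.0547 to 0.103 under the 6 of 15 alternatives in which the call was lost. The part of fat around the vessel in the CFD values was not tested.

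**Figure D3:**
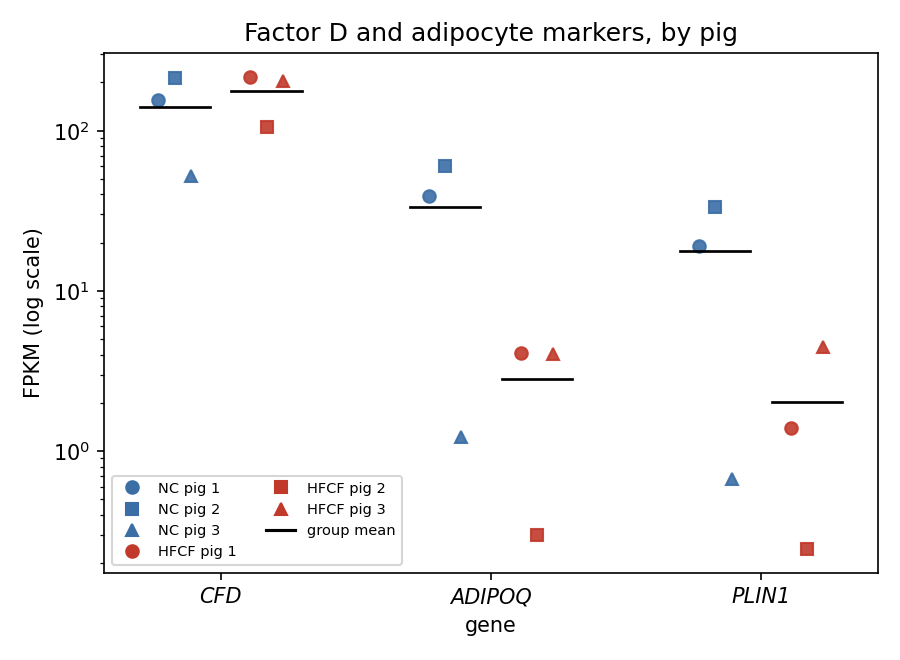
FPKM of CFD and of the adipocyte markers ADIPOQ and PLIN1 in each pig on a log axis, with blue for NC, red for HFCF and a bar at the group mean. NC pig 3 and HFCF pig 2 are the lowest of their groups for all 3 genes, and CFD stays above 52 FPKM in every pig while ADIPOQ ranges from 0.301 to 59.9 FPKM.

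Macrophage markers rose beside C1q and the receptors. Of 14 markers tested, 12 were called higher, against 22.8% of all tested genes. The log2 fold changes ran from -0.24 to 5.22 over the list, with a median of 2.77 against 0.32 over all tested genes. Only MERTK and MARCO were not called, and MARCO was called higher without HFCF pig 3, with an adjusted p of 0.0102. Among the 12, MRC1, the mannose receptor, lost its call under 11 of 15 alternatives, with adjusted p-values of 0.0416 to 0.303 over all of them. The summed FPKM of all 14 markers was 90.9 to 96.9 in the NC pigs and 1558, 603 and 617 in HFCF pigs 1 to 3. LAPTM5 alone had 46.45, 48.08 and 43.35 FPKM in NC pigs 1 to 3 and 448.7, 156.7 and 168.3 FPKM in HFCF pigs 1 to 3. CD68, a lysosomal protein of macrophages, was measured at 3.65, 4.11 and 5.67 FPKM in NC and at 261, 114 and 98.0 FPKM in HFCF, with a log2 fold change of 4.99 and an adjusted p of 0.000646. CSF1R, the receptor for macrophage colony-stimulating factor, had a mean of 9.49 ± 0.916 FPKM (SD, n = 3) in NC and was measured at 93.9, 39.0 and 48.4 FPKM in HFCF, with a log2 fold change of 2.56 and an adjusted p of 0.00257. In RNA of a whole vessel, more cells of a type and more RNA per cell cannot be told apart.

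C1QB did not keep a fixed ratio to these markers. Its ratio to CD68 was 2.70, 2.37 and 2.07 in the NC pigs, against 1.55, 1.52 and 1.68 in the HFCF pigs, lower in each HFCF pig. Its ratio to CSF1R was 0.967, 0.993 and 1.38 in NC and 4.32, 4.45 and 3.41 in HFCF, and its ratio to TYROBP, an adaptor of myeloid receptors, was 0.890, 0.940 and 1.12 in NC and 1.64, 1.64 and 1.49 in HFCF. Both were higher in each HFCF pig. So was its ratio to CD163, with 7.82, 5.74 and 9.25 in NC and 14.9, 26.8 and 18.4 in HFCF. The ratio of C1QB to VSIG4 overlapped between the groups, with 2.19 to 5.33 in NC and 4.25 to 5.23 in HFCF.

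**Figure D4:**
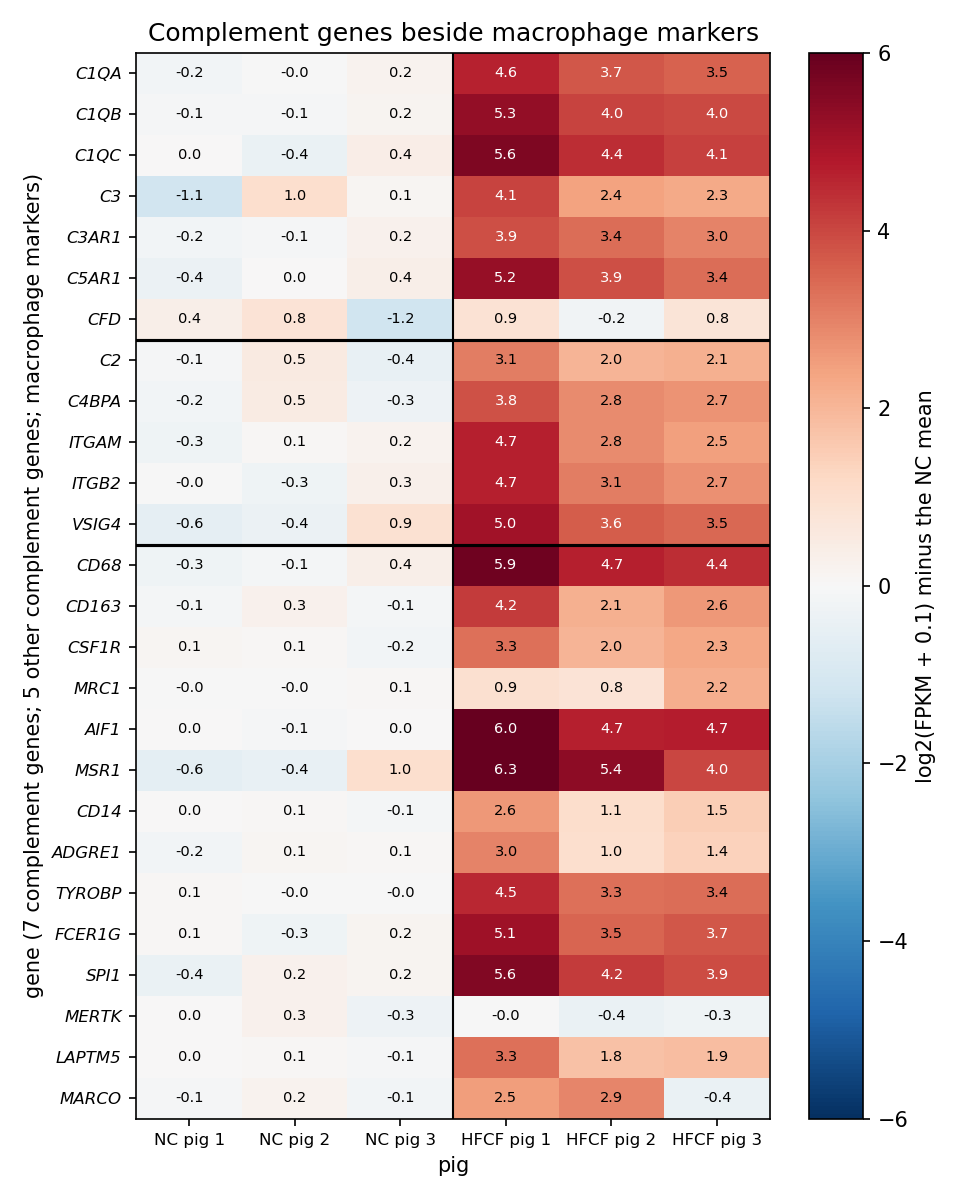
Log2(FPKM + 0.1) minus the NC mean for each pig (columns), for the 7 measured genes of the set, 5 other complement genes and 14 macrophage markers (rows), with red above and blue below the NC mean. HFCF pig 1 holds the darkest red in most rows, and CFD and MERTK stay near the NC mean in the HFCF pigs.

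Markers of other cells were set beside these values. Of all tested genes, 22.8% were called higher and 6.16% lower. Of the neutrophil markers 2 of 5 tested were called higher, and CSF3R, the receptor for granulocyte colony-stimulating factor, was measured at 0.166 to 0.380 FPKM in NC and at 55.9, 8.38 and 4.55 FPKM in HFCF. The other was S100A9, listed at 0 in the 3 NC pigs and at 15.5, 0.384 and 0.554 FPKM in the HFCF pigs, and its call was lost under 10 of 15 alternatives. C5AR1 is also expressed by neutrophils, and their part in its values was not tested. T cell markers were called in 2 of 6 cases, CD2 and TRAT1, and B and plasma cell markers in 1 of 6, CD79A. Every HFCF value lay above every NC value in 5 of the 6 T cell markers and 3 of the 6 B and plasma cell markers. This held for 36.1% of all tested genes. Of 8 contractile smooth muscle markers, 6 were called lower, among them MYH11 with a log2 fold change of -1.08. The summed FPKM of the 8 hepatocyte markers was 25.3 to 84.0 in NC and 50.6 to 156 in HFCF, and 1 of the 6 tested was called higher, TTR, at up to 0.0985 FPKM in NC and 0.358 to 0.692 FPKM in HFCF with an adjusted p of 0.0103. Most of this sum was APOA1, at 74.7, 83.8 and 25.05 FPKM in the NC pigs and at 155, 71.7 and 48.7 FPKM in the HFCF pigs, with overlap between the groups. ALB stayed at or below 3.17 FPKM in every pig, and SERPINA1 was listed at 0 in 5 of 6. ALB was not called with all pigs, at an adjusted p of 0.225, but was called higher without HFCF pig 1, at 0.0374. Of 8 fibroblast markers, 1 was called higher, LUM, 3.81-fold with an adjusted p of 0.00215. Of 3 mast cell markers tested, 1 was called higher, HDC, with an adjusted p of 0.0203. HDC was measured at 0.161 to 0.415 FPKM in NC and 0.726 to 1.68 FPKM in HFCF. The part of liver-type transcripts in the C3 values was not tested, nor was that of fibroblasts or mast cells in any complement value.

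The pattern of the C1q chains was compared with that of 9579 genes with a symbol of their own and a mean of at least 1 FPKM, by Pearson's r with the mean log2 value of the 3 chains over the 6 pigs. The most alike were TAGAP, at 0.9995, and CD68, BTK and DNASE2, each at 0.9994, followed by U2AF2 at 0.9993. These values are descriptions, since the 6 pigs fall into 2 diet groups and share their libraries, and a gene can come close to 1 whatever the size of its change. The log2 fold change was 4.99 for CD68 and 4.05 for BTK, a kinase of B cells and myeloid cells, but 0.56 for U2AF2, a splicing factor. On the same measure r was 0.998 for C3AR1, 0.994 for C5AR1, 0.908 for C3 and 0.303 for CFD.

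**Figure D5:**
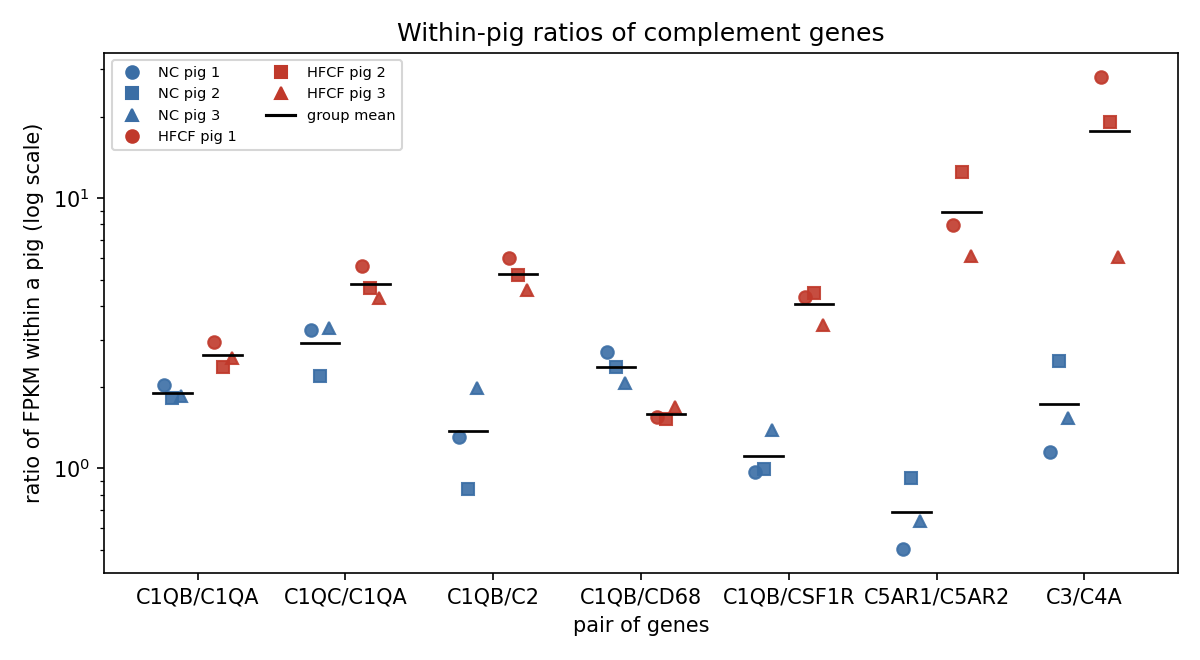
Ratio of FPKM within a pig on a log axis for 7 pairs of genes, with blue for NC, red for HFCF and a bar at the group mean. The ratios of C1QB and C1QC to C1QA, of C1QB to C2 and to CSF1R, of C5AR1 to C5AR2 and of C3 to C4A are higher in each HFCF pig, and that of C1QB to CD68 is lower in each HFCF pig.

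Relative to the median over all genes, the log2 fold changes were 3.64 for C1QA, 4.11 for C1QB, 4.39 for C1QC, 2.60 for C3, 3.08 for C3AR1, 3.83 for C5AR1 and 0.15 for CFD. The smallest two-sided p that an exact permutation test can give for 1 gene in 3 against 3 pigs is 0.1, so the p-values rest on limma, which shares the spread across genes.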

How the data were processed

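The authors aligned paired-end reads to an earlier pig assembly than the reference table at hand with HISAT2 and used StringTie for assembly and quantification, after cutadapt 1.9 and FastQC per the submitters' processing notes, and the FPKM values they deposited were used unchanged. A value of 0.0001 was read as 0. FPKM expresses a gene relative to the rest of its library. Read counts were not used here, absolute depth is unknown, and the spread among 3 pigs sets the precision. Relative depths were estimated from genes of low FPKM, as the inverse of the most common ratio of their values to those in NC pig 1. No coordinates or sequences are given.

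With limma 3.58.1 in R 4.3.3, a linear model with 1 factor, the diet, was fitted (eBayes with a variance trend) to log2(FPKM + 0.1) of the 15384 genes whose FPKM averaged 0.1 or more, and was tested on simulated data. Replicates were separate pigs. The set and all lists were chosen with earlier results of these data known. All genes of the set were named, as were called genes of the pathway lists, their fixed counterparts and a few markers per list. Several listed genes, C3AR1, CFB, CFI, CD46, CD55 and CD59 among them, were matched by identifier or description. These matches, the 19 ratio pairs and the naming of C7, MASP2, C1RL and FCN1 were chosen after values were seen. A planned comparison of C1q with C1R and C1S, a likeness search for C1S and a search for promoter motifs could not be made. A test of each gene against a reference gene within a pig was tried and dropped, because the noise of the reference, shared by all genes, made its p-values too small. Alternatives were other pseudocounts, filters and scalings, eBayes without a trend, the replicate number as a block, each pig left out and the thresholds of the study. RefSeq served only for names and neighbouring genes.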

Additional observations from a re-analysis of the deposited data

How the results depend on the processing

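Over 15 alternatives each, the calls of C1QA, C1QB, C1QC, C3AR1 and C5AR1 were kept, and C3 lost its call in 2. Its log2 fold change was 2.92 with a block by replicate number, with an adjusted p of 0.0524, and 2.35 to 3.43 with 1 pig left out. No direction is given for CFD, which ranged from -0.12, without NC pig 3, to 0.89. Replicate numbers showed no sign of pairing the pigs. Deviations of pigs with the same number correlated at 0.021, -0.079 and -0.072, against -0.069 to 0.127 for different numbers. With so few pigs per group, these values cannot exclude a pairing. With this block 5 genes of the set and 8 other complement genes were called, against 6 and 10 without it. Leaving out 1 pig left 5 to 6 genes of the set called. Genes that were not called also changed sign, namely C4A, at -0.57 to 0.17 and CFB, at -1.49 to 0.27 with 1 pig left out (highest without HFCF pig 2 in both), and CFI, at -0.11 with quantile normalization. CFP was at -0.15 with median-ratio scaling, -0.25 with quantile normalization and -0.059 as TPM. With 1 pig left out, SERPING1 ranged from -0.22 to 0.031, above 0 without NC pig 2, HFCF pig 1 or HFCF pig 2, and CD59 from -0.36 to 0.17, above 0 without NC pig 2 or HFCF pig 2. CLU, drawn in the plot of changes by role, was at -0.026 with median-ratio scaling, -0.031 with quantile normalization and at -0.0066, without HFCF pig 2, to 0.52 with 1 pig left out. CALR was at -0.35, -0.15 and -0.25 with these scalings and TPM, and at -0.041 to 0.092 with 1 pig left out. Scaling moved the median log2 fold change of all genes from 0.32 to -0.01 (median-ratio), -0.08 (quantile) and 0.07 (TPM). The causes were not tested. Depth limits genes under 1 FPKM most.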
